A study of Neotoma stephensi and Rattus norvegicus with 6 samples.

Results

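The genes described here encode 2 kinds of membrane carriers that move drugs, plant compounds, lipids and organic ions across cell membranes. They were taken by symbol, as every gene starting with Abca, Abcb, Abcc, Abcd or Abcg (ATP-binding cassette, ABC, transporters) or with Slc22a, Slco or Slc47a (solute carriers of organic ions). The rule found 61 of the 15481 genes listed, 40 ABC transporters and 21 solute carriers. By family these were 14 Abca, 9 Abcb, 9 Abcc, 4 Abcd, 4 Abcg, 11 Slc22a, 8 Slco and 2 Slc47a genes. Transcripts were read by stranded mRNA sequencing of a piece of the fornix ventricularis, the proximal stomach, of 3 Stephens' woodrats (Neotoma stephensi) and 3 Sprague Dawley lab rats (Rattus norvegicus).

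All 6 animals were female, and the labels call them virgin, although the study's methods leave it open for the wild-caught woodrats. The woodrats were caught in the wild and fed juniper foliage until dissection, whereas the lab rats were purchased and kept on standard chow. The woodrat foregut holds a dense microbial community, and that of lab rats a sparse one. Ages were not given in the sources used here. Species, diet, origin and microbial load differ together between the groups and cannot be told apart. Every read was assigned by alignment to mouse coding transcripts, so a gene's count also depends on how well each species matches the mouse sequence.

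Each animal had between 5439642 and 7932637 counted reads, and 3 reads, taken as the detection floor, corresponded to between 0.355 and 0.585 reads per 1000000 counted reads (CPM) after TMM normalization. The listed genes all have woodrat reads, while 809 genes have no lab rat reads, so a transporter read only in lab rats is not analysed here. The libraries carried the tissue's defining markers, with a summed level of 10 squamous epithelium genes between 16300 and 48000 CPM, of which Krt4 was higher in woodrats and Ivl lower. The 7 glandular stomach genes in the files summed to between 7.90 and 12.9 CPM in woodrats and 7.31 to 10.9 CPM in lab rats. Atp4a, the proton pump of acid-secreting cells, was the largest part in every animal, at 5.68 to 6.05 CPM in woodrats and 6.73 to 9.75 CPM in lab rats, while the gastric mucin Muc5ac had 1.66 to 3.90 CPM in woodrats and 0 reads in each lab rat (FDR = 0.00305). Pgc, Gkn1 and Tff2 had at most 1 read in any animal. Woodrat 1 stood apart within its species. Its 8 smooth muscle genes summed to 114000 CPM against 56200 and 35900 in woodrats 2 and 3, and its squamous epithelium genes to 18100 CPM against 38000 and 48000. In such whole-tissue libraries, fewer cells of a type and less RNA per cell cannot be told apart.

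ABC transporters use ATP to pump substrates across a membrane. The Abca family and part of Abcg move sterols, phospholipids and ceramides. Members of Abcb, Abcc and Abcg export drugs and conjugated metabolites, and other Abcb and all Abcd proteins sit in mitochondria, lysosomes or peroxisomes. The Slc22a carriers (organic cation and anion transporters), Slco carriers (organic anion transporting polypeptides) and Slc47a carriers (multidrug and toxin extrusion proteins) work without ATP hydrolysis. Together they are best known from liver, kidney and gut, where they set how much of a foreign compound enters and leaves a cell. Some have other main tasks, such as Abca12 in the lipid barrier of keratinized epithelium and Abcc9 in potassium channels of smooth muscle and pericytes.

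Of the 61 genes, 42 reached 1 CPM in at least 3 animals and were tested, and 19 did not. At a false discovery rate (FDR) below 0.01, 7 of the 42 differed between the species. Abca5, Abcg2, Slc22a5, Abcd4 and Abcc5 were higher in woodrats, and Abcc3 and Abcb6 were lower. That is 16.7% of the tested transporters against a background of 20.0% of all 12603 tested genes, and by direction the background was 10.3% higher and 9.71% lower in woodrats. The median log2 fold change, positive where woodrats were higher, was -0.22 over the tested transporters and 0.03 over all tested genes. Every woodrat lay apart from every lab rat in 22 of the 42, 11 with woodrats above and 11 with lab rats above, against a background of 56.2% of all tested genes (28.8% and 27.4%). At the looser FDR below 0.05, 19 transporters passed, 10 higher and 9 lower in woodrats, beside 39.9% of all tested genes. The share of transporters called was thus close to that of all genes. The number of calls was not steady. It ranged from 2 to 8 over the fits that left out 1 animal (2 without woodrat 2, lab rat 1 or lab rat 2, and 4 without lab rat 3), and was 4 with total counts in place of TMM and 12 with DESeq2. Abca5 and Abcb6 were called in all of these fits. Over all 12603 tested genes, DESeq2 called 3916, and by edgeR 6261 had an unadjusted p below 0.05.

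**Figure D1:**
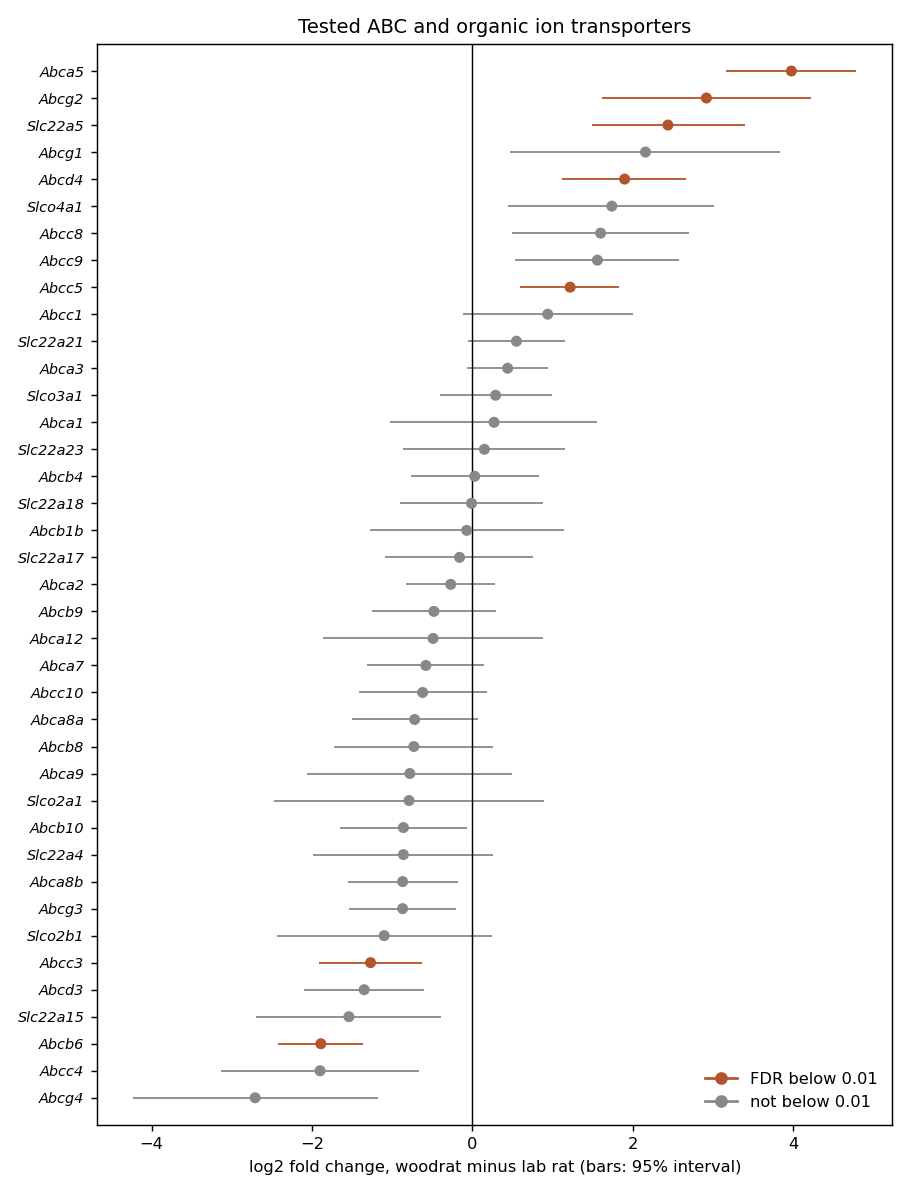
Log2 fold change (x axis, woodrat minus lab rat) of 39 of the 42 tested transporters (y axis), with bars for the 95% interval and orange for FDR below 0.01. The 7 orange points run from 3.98 for Abca5 to -1.89 for Abcb6, and several grey points further from 0 than Abcc3 or Abcc5 have wide intervals.

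Abca5 (ENSMUSG00000018800.13) showed the largest difference of the 42. It encodes a lipid transporter of lysosomes and late endosomes. It had 117, 245 and 336 reads in woodrats 1, 2 and 3 against 15, 15 and 9 in lab rats 1, 2 and 3. These correspond to 22.8, 34.0 and 39.8 CPM in woodrats and 1.86, 2.48 and 1.73 CPM in lab rats. The lowest woodrat was far above the highest lab rat. This is a log2 fold change of 3.98 ± 0.36 (SE, FDR = 0.000322), or 15.8-fold. It kept its call in each of the 17 alternative fits.

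None of the 8 other Abca genes tested passed the threshold. With Abca5, 11.1% of the tested Abca genes were called, against 20.0% of all tested genes, too few genes to set the family apart. Abca12, which loads ceramides into the lamellar granules of keratinocytes, had 37.9, 123 and 304 CPM in the woodrats and 249, 214 and 191 CPM in the lab rats. The woodrats spanned 8.02-fold and the lab rats 1.30-fold, and the lab rats lay inside the woodrat range. Its log2 fold change was -0.49 with a 95% interval from -1.86 to 0.88. Abca1, the cholesterol exporter that loads apolipoprotein A-I, was likewise spread in woodrats at 2.34, 12.6 and 14.2 CPM and stood at 10.4, 7.27 and 6.73 CPM in lab rats, with a log2 fold change of 0.27 (interval from -1.03 to 1.56). Abca2 and Abca3, lipid transporters of lysosomes and of the surfactant granules of the lung, had small differences with narrow intervals. For Abca3 the log2 fold change was 0.44, with all woodrats (65.0 to 77.1 CPM) above all lab rats (42.7 to 56.0 CPM) and FDR = 0.148. For Abca2 it was -0.27 with an interval from -0.83 to 0.28. Abca7, a phospholipid transporter linked to phagocytosis, had a log2 fold change of -0.58 (FDR = 0.179).

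Abca8a, Abca8b and Abca9 are near relatives in 1 gene cluster, and reads of this kind can be divided wrongly between copies. All 3 had negative log2 fold changes, of -0.72, -0.87 and -0.78, with FDR values from 0.0477 to 0.292. For Abca8b the woodrats had 5.66, 5.68 and 4.85 CPM, while the lab rats had 11.0, 9.75 and 8.66 CPM, without overlap. Summed to 1 entry, the 3 genes had a log2 fold change of -0.77 (interval from -1.41 to -0.13, FDR = 0.058).

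Abcg2 (ENSMUSG00000029802.12) encodes the breast cancer resistance protein, an exporter of drugs and of plant-derived compounds in gut and barrier tissues. It had 16, 81 and 56 reads in woodrats 1, 2 and 3 against 9, 6 and 3 reads in lab rats 1, 2 and 3. In CPM the woodrats had 3.12, 11.2 and 6.63 and the lab rats 1.12, 0.991 and 0.577. The lab rats were close to the detection floor of their libraries. This is a log2 fold change of 2.92 ± 0.57 (SE, FDR = 0.00527), or 7.58-fold, and the fits without 1 animal gave 2.37 to 3.26 with the FDR below 0.01 in 2 of 6 fits, and it was not called with total counts in place of TMM.

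Abcg3 is a rodent relative of Abcg2, and its reads pointed the other way. The woodrats had 8.78, 6.52 and 6.86 CPM, while the lab rats had 15.1, 13.9 and 11.4 CPM, without overlap (log2 fold change -0.87, FDR = 0.0439). Of the reads given to either gene, Abcg2 took 26.2%, 63.3% and 49.1% in the woodrats and 6.87%, 6.67% and 4.84% in the lab rats. The sum of both genes was 11.9, 17.7 and 13.5 CPM in woodrats and 16.2, 14.9 and 11.9 CPM in lab rats. The species overlapped, with a log2 fold change of 0.00 ± 0.29 (SE, interval from -0.66 to 0.66, FDR = 0.995). The call of Abcg2 was thus not kept by the sum, which cannot tell opposite changes of both genes from reads divided differently between them. Whether woodrat and lab rat reads of 1 gene were assigned to the other was not tested.

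**Figure D2:**
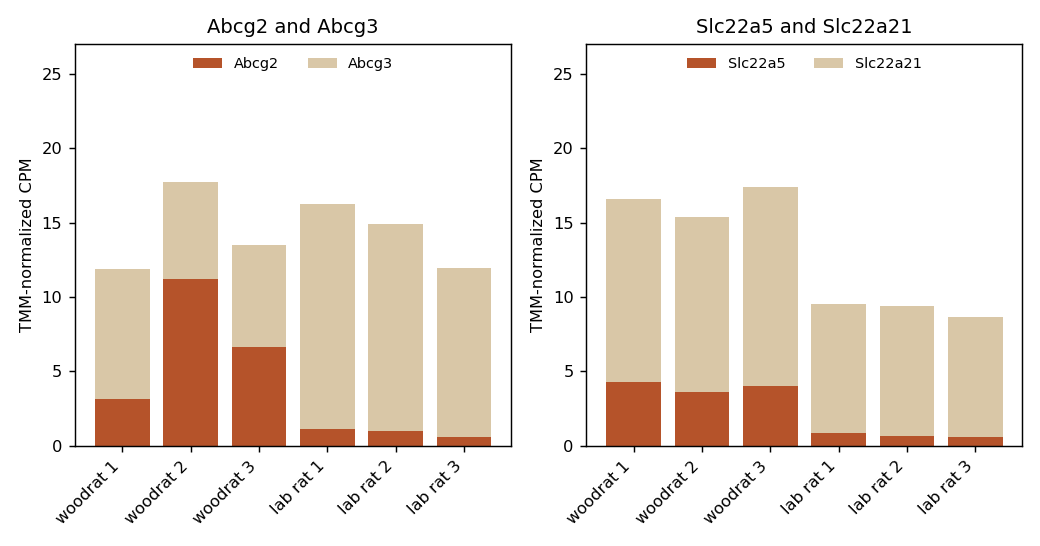
Stacked bars of TMM-normalized CPM per animal for Abcg2 with Abcg3 (left) and Slc22a5 with Slc22a21 (right), without correction for gene length. The left bars reach similar heights in both species (11.9 to 17.7 CPM) while the orange Abcg2 part is small in lab rats, and the right bars are taller in the 3 woodrats (15.4 to 17.4 CPM) than in the 3 lab rats (8.66 to 9.55 CPM).

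Abcg1 and Abcg4, which export sterols to lipoproteins, were the most variable pair. Abcg1 had 1.76, 7.90 and 20.2 CPM in woodrats and 2.48, 2.31 and 1.92 CPM in lab rats, so woodrat 1 lay below every lab rat. Its log2 fold change was 2.16 (FDR = 0.0461), and without woodrat 1 the gene passed the threshold at 2.64 (FDR = 0.00538). Without woodrat 3 it was 1.13 (FDR = 0.168), and only 1 of the 6 fits that left out an animal called Abcg1. Abcg4 had 1.37, 6.52 and 16.8 CPM in woodrats and 52.7, 68.6 and 43.7 CPM in lab rats. All lab rats were above all woodrats, by a log2 fold change of -2.71 that missed the threshold (standard error 0.67, FDR = 0.0138). DESeq2 and the fit without a filter called it, as did the fits without woodrat 1 or without woodrat 3. Within the woodrats, which spanned 11.5-fold for Abcg1 and 12.3-fold for Abcg4, woodrat 1 was lowest and woodrat 3 highest for both genes.

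The Abcc family, the multidrug resistance proteins, held a call in each direction among 7 tested genes (28.6%, against 20.0% of all tested genes). Abcc5 (ENSMUSG00000022822.14) exports cyclic nucleotides and folate and nucleotide analogs. It had 21.9, 22.9 and 19.4 CPM in woodrats and 10.7, 8.92 and 7.89 CPM in lab rats. The species were well apart and each was tight. This is a log2 fold change of 1.22 ± 0.27 (SE, FDR = 0.00882), or 2.32-fold. Abcc3 (ENSMUSG00000020865.15), a basolateral exporter of glucuronides and bile salts, had 11.5, 19.7 and 18.1 CPM in woodrats and 43.9, 40.2 and 35.0 CPM in lab rats. Every lab rat was above every woodrat, with a log2 fold change of -1.27 ± 0.28 (SE, FDR = 0.00875). Both genes lay close to the threshold. Each lost its call in all 6 fits that left out an animal, with log2 fold changes of 1.12 to 1.34 for Abcc5 and -1.46 to -1.07 for Abcc3, and both lost it under total counts (FDR at most 0.0436 in any fit).

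Abcc1 and Abcc4 showed wide spread instead. Abcc1, the general exporter of glutathione conjugates and leukotriene C4, had 27.3, 44.2 and 68.4 CPM in woodrats and 32.6, 29.4 and 10.6 CPM in lab rats (log2 fold change 0.94, FDR = 0.137). Abcc4, an exporter of cyclic nucleotides, prostaglandins and nucleoside drugs, had 3.32, 7.07 and 6.27 CPM in woodrats and 25.7, 30.1 and 6.93 CPM in lab rats. Lab rat 3 lay within the woodrat range. The log2 fold change was -1.90 (FDR = 0.0244), and without lab rat 3 it was -2.31 (FDR = 0.00743). That was the only 1 of the 6 fits without an animal to call Abcc4, and the 6 gave -2.31 to -1.55. Abcc10, a broad drug exporter, had a log2 fold change of -0.62 (FDR = 0.189).

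Abcc8 and Abcc9 encode the sulfonylurea receptors, which do not export drugs but form potassium channels with Kcnj11 and Kcnj8. Abcc9 had 32.4, 55.6 and 30.4 CPM in woodrats and 16.2, 18.2 and 5.58 CPM in lab rats, all woodrats above all lab rats (log2 fold change 1.56, FDR = 0.0251). Abcc8, which passed the filter through the woodrats only, had 18, 14 and 16 reads in woodrats against 6, 4 and 5 in lab rats (log2 fold change 1.60, FDR = 0.0295). Their channel partner Kcnj8 passed the threshold, with 83.2 CPM in woodrats against 32.4 CPM in lab rats on average and a log2 fold change of 1.36 (FDR = 0.00418), and Kcnj11 had 1.14 (FDR = 0.0458). The summed smooth muscle and pericyte markers were also higher in woodrats. Within species the smooth muscle sum was highest in woodrat 1 and lab rat 3, whereas Abcc9 was highest in woodrat 2 and lowest in lab rat 3. The pericyte sum was highest in woodrat 2 and lowest in lab rat 3, but its genes did not share 1 order. Rgs5 held 303, 482 and 128 CPM of the sum in woodrats 1, 2 and 3. Pdgfrb was also highest in woodrat 2, Kcnj8 and Cspg4 in woodrat 1, and Notch3 in woodrat 3. Lab rat 3 was the lowest lab rat in 3 of the 5 pericyte genes. Of the 8 smooth muscle markers 3 were higher in woodrats and 0 lower, and their sum was 35900 to 114000 CPM in woodrats and 9900 to 17700 CPM in lab rats. Of the 5 pericyte markers, Kcnj8 among them, 3 were higher and 0 lower, with sums of 381 to 720 and 164 to 234 CPM. Their part in the Abcc8 and Abcc9 values was not tested.

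Among the Abcb genes, the call fell on Abcb6 (ENSMUSG00000026198.14), a porphyrin transporter of mitochondrial and other membranes. It had 82, 147 and 154 reads in woodrats and 568, 357 and 382 in lab rats. In CPM these were 16.0, 20.4 and 18.2 in woodrats and 70.4, 59.0 and 73.5 in lab rats, a wide gap between 2 tight groups. This is a log2 fold change of -1.89 ± 0.23 (SE, FDR = 0.000990), or 3.71-fold lower in woodrats, and each of the 17 alternative fits called it. The other mitochondrial members described here did not pass the threshold. Abcb10, needed for haem synthesis, and Abcb8, linked to mitochondrial iron and potassium, had log2 fold changes of -0.86 (FDR = 0.0776) and -0.73 (FDR = 0.211). Abcb8 was steady in lab rats, at 29.9 to 30.4 CPM, and spread in woodrats from 7.02 to 28.3 CPM. The lysosomal peptide transporter Abcb9 had a log2 fold change of -0.48 (FDR = 0.286).

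P-glycoprotein, the broad drug exporter that rodents encode in Abcb1a and Abcb1b, was read at low levels in both species. Abcb1b had 5, 33 and 24 reads in woodrats and 20, 21 and 16 in lab rats, and Abcb1a had 0, 15 and 12 reads and 7, 1 and 1 reads. Abcb1a did not reach the filter. Summed over both copies the woodrats had 0.975, 6.65 and 4.26 CPM, while the lab rats had 3.35, 3.64 and 3.27 CPM. Woodrat 1 was the lowest and woodrats 2 and 3 the highest animals. The log2 fold change of the sum was 0.24 with an interval from -1.08 to 1.56 (FDR = 0.768), so a difference in either direction within that interval remains possible. Abcb4, the phosphatidylcholine exporter of bile, had 5.44 to 9.57 CPM in woodrats and 6.35 to 7.27 CPM in lab rats (log2 fold change 0.03, interval from -0.77 to 0.83).

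The Abcd family carries fatty acyl-CoA into peroxisomes, apart from Abcd4, which takes part in the lysosomal release of cobalamin (vitamin B12). Abcd4 (ENSMUSG00000021240.5) had 138, 267 and 396 reads in woodrats and 67, 47 and 72 in lab rats. These were 26.9, 37.0 and 46.9 CPM in woodrats and 8.31, 7.77 and 13.9 CPM in lab rats, without overlap. This is a log2 fold change of 1.90 ± 0.34 (SE, FDR = 0.00388), or 3.72-fold, and 3 of the 6 fits that left out an animal kept the call. Abcd3, which carries long- and branched-chain acyl-CoA and bile acid precursors, had 39.4, 46.2 and 75.3 CPM in woodrats and 162, 153 and 95.6 CPM in lab rats (log2 fold change -1.35, FDR = 0.0130). The species did not overlap. The gene missed the threshold, and passed it with DESeq2, with the size factors of DESeq2 in edgeR, and without woodrat 3. Abcd2 had 0, 1 and 1 reads in woodrats and 11, 7 and 5 in lab rats. Of the partner genes of these carriers, Pex19, which brings peroxisomal membrane proteins to their membrane, was lower in woodrats (log2 fold change -1.10, FDR = 0.00690), while Pex3 and Hsd17b4 each had a log2 fold change of -0.56.

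**Figure D3:**
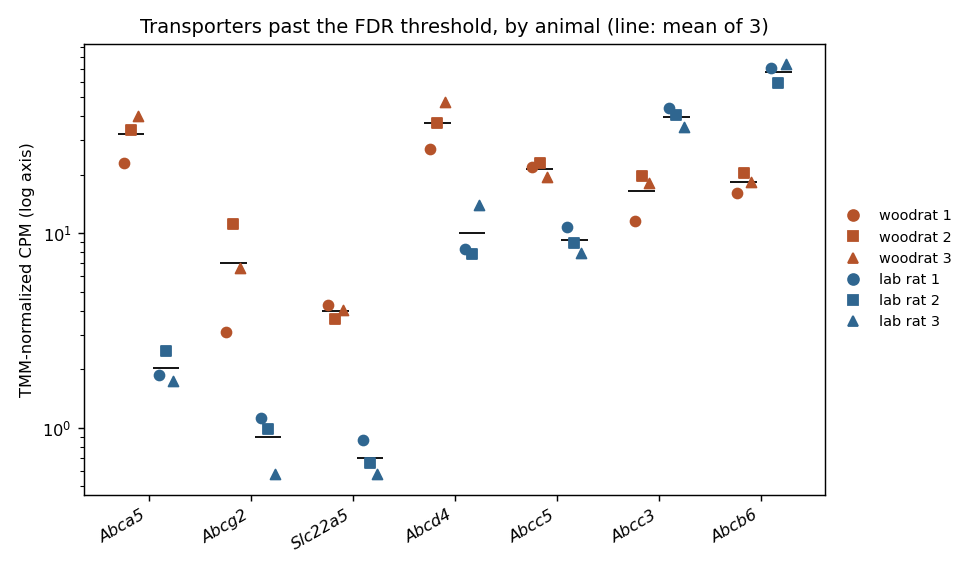
TMM-normalized CPM (log axis) of the 7 transporters past the FDR threshold in each animal, with woodrats in orange, lab rats in blue, a marker shape per animal and a line at the mean of 3. In each gene the 3 woodrats lie wholly above or wholly below the 3 lab rats, and the gap is widest for Abca5 (22.8 to 39.8 against 1.73 to 2.48 CPM).

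Of the organic ion carriers, 12 of 21 were tested and Slc22a5 was called (8.33%, against 20.0% of all tested genes). Slc22a5 (ENSMUSG00000018900.7) encodes Octn2, the sodium-dependent carnitine transporter. It had 22, 26 and 34 reads in woodrats and 7, 4 and 3 in lab rats. These were 4.29, 3.60 and 4.02 CPM in woodrats and 0.868, 0.661 and 0.577 CPM in lab rats, the latter at or just above the floor. This is a log2 fold change of 2.44 ± 0.42 (SE, FDR = 0.00319), or 5.43-fold, and 2 of the 6 fits that left out an animal kept the call. Slc22a5 reached the 1 CPM of the filter in woodrats only, so it was tested only through the species where it was higher.

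Slc22a21 encodes Octn3, a near relative of Slc22a5, and took most of the reads of the pair. It had 12.3, 11.8 and 13.4 CPM in woodrats and 8.68, 8.76 and 8.08 CPM in lab rats, without overlap (log2 fold change 0.55, FDR = 0.133). Slc22a5 took 25.9%, 23.4% and 23.1% of the reads of both in woodrats and 9.09%, 7.02% and 6.67% in lab rats. Their sum was 16.6, 15.4 and 17.4 CPM in woodrats and 9.55, 9.42 and 8.66 CPM in lab rats. The direction stayed, with all woodrats above all lab rats, but the log2 fold change shrank to 0.84 (standard error 0.26, interval from 0.24 to 1.43, FDR = 0.0330). Slc22a4, the ergothioneine transporter Octn1, had 1.76, 7.49 and 6.86 CPM in woodrats and 10.5, 7.77 and 11.5 CPM in lab rats (log2 fold change -0.86, FDR = 0.193).

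Slc22a15 had 2.54, 1.66 and 1.89 CPM in woodrats and 9.30, 5.45 and 2.69 CPM in lab rats (log2 fold change -1.54, FDR = 0.0398). Slc22a17, a receptor for lipocalin-2, had a log2 fold change of -0.16, Slc22a18 of -0.01 and Slc22a23 of 0.15, each with overlapping species and an interval that reached at least 0.76 on the positive side and -0.86 on the negative side.

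No tested Slco gene passed the threshold (against 20.0% of all tested genes), and the species overlapped in all 4 (against 5525 of all 12603). By edgeR, 1 of the 4 had an unadjusted p below 0.05, and DESeq2 called 0 of them, against 6261 and 3916 of all 12603. Slco2a1, the prostaglandin uptake carrier, had 2.73, 17.2 and 37.3 CPM in woodrats and 43.6, 40.5 and 15.6 CPM in lab rats (log2 fold change -0.79, interval from -2.47 to 0.89). The woodrats spanned 13.6-fold, the widest span among woodrats of any tested transporter. Slco2b1, a carrier of steroid sulfates and drugs, had 1.37, 5.41 and 8.16 CPM against 15.4, 11.2 and 5.96 CPM (log2 fold change -1.10, FDR = 0.166). Slco4a1, which takes up thyroid hormones, had 1.76, 6.38 and 7.22 CPM in woodrats and 1.49, 1.98 and 1.15 CPM in lab rats, with woodrat 1 inside the lab rat range. Its log2 fold change was 1.74 (FDR = 0.0384) and 2.12 without woodrat 1 (FDR = 0.00733). That was the only 1 of the 6 fits without an animal to call Slco4a1, and the 6 gave 1.41 to 2.12. Slco3a1, a carrier of prostaglandins and thyroxine, was steadier, at 27.5 to 41.2 CPM in woodrats and 20.8 to 38.2 CPM in lab rats (log2 fold change 0.29, interval from -0.40 to 0.99).

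The 19 members below the filter include several transporters best known from liver and kidney. The hepatic carriers Slco1a4, Slco1a5 and Slco1b2 had at most 4 reads in any animal, and so did Slc47a1 (Mate1), with 2 reads in woodrat 2 and 0 elsewhere. The bile salt export pump Abcb11 had 20 reads over the woodrats and 16 over the lab rats. Abca13, Abca16, Abcc12, Slc22a13, Slc22a20 and Slc22a26 had 10 reads or fewer over all animals. Abca4 had 8 and 19 reads over the woodrats and lab rats, Abca17 had 21 and 8, and Abcc6 had 11 and 4. Levels of this kind lie near or under the floor of 3 reads per library, so no difference between the species could be shown for them.

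In 4 of the 19, a species had 1 to 3 reads in all and the other 10 or more. Abcd2 had 2 reads over the woodrats and 23 over the lab rats, a ratio of 12.4 toward lab rats (95% exact interval 3.06 to 108). Slc47a2 had 1, 5 and 15 reads in woodrats and 1, 0 and 1 in lab rats, a ratio of 9.76 toward woodrats (2.39 to 85.9). Abca6 had 18 reads over the woodrats and 1 over the lab rats, a ratio of 16.7 (2.64 to 697). Slco5a1 had 18 and 2, a ratio of 8.37 (2.00 to 74.3). The 4 genes were picked by these same counts, so large ratios follow from the choice and are not evidence of a difference. Their intervals pool the reads of a species and cover counting error only, not the spread between animals. When all genes were fitted without a filter, 0 of the 19 had an FDR below 0.01 by edgeR and 5 had an unadjusted p below 0.05 (these 4 and Slc22a20, with 9 reads over the woodrats and 1 over the lab rats), while DESeq2 was run on the filtered genes only.

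Beside the carriers, 57 genes that regulate them, bind them or share their pathways were examined, of which 51 were listed and 42 tested. At an FDR below 0.01, 3 were higher and 3 lower in woodrats, or 14.3% of those tested against the background of 20.0%. Of the 13 regulators tested, 0 passed the threshold by edgeR, 5 had an unadjusted p below 0.05, and DESeq2 called 2, Nfe2l2 and Nr1h3. Among all 12603 tested genes, 6261 had an unadjusted p below 0.05 by edgeR and DESeq2 called 3916. Nfe2l2, the regulator of the antioxidant response and of several Abcc genes, had a mean of 134 CPM in woodrats against 337 CPM in lab rats (log2 fold change -1.32, FDR = 0.0167). Nr1h3, the liver X receptor alpha that drives Abca1 and Abcg1, had 21.4 and 44.9 CPM (log2 fold change -1.07, FDR = 0.0122). In both, all lab rats were above all woodrats. Ahr, the receptor for dioxin-like plant compounds, had a log2 fold change of -0.47 (FDR = 0.628). At an FDR below 0.05, 2 regulators were lower in woodrats, Nfe2l2 and Nr1h3, and 2 were higher. These were Rxrb, with a log2 fold change of 0.78 (FDR = 0.0205), and Arnt, with 0.95 (FDR = 0.0443), each without overlap of the species.

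Among the other partners, Rdx (radixin), which anchors Abcc proteins at the membrane, was higher in woodrats, by a log2 fold change of 1.92 (FDR = 0.00387). The nucleoside carrier Slc29a1 was higher as well, with 1.91 (FDR = 0.00286). Apoe, the lipoprotein that accepts sterols from Abca1 and Abcg1, was lower, with a mean of 297 CPM in woodrats against 2080 CPM in lab rats and a log2 fold change of -2.81 (FDR = 0.00170). Lcat, which esterifies the exported cholesterol, was lower with -1.77 (FDR = 0.00845). Macrophages make much Apoe, and 4 of the 7 macrophage markers were lower in woodrats and 0 higher, with sums of 8.59 to 30.9 CPM in woodrats and 47.1 to 93.1 CPM in lab rats. Their part in the Apoe values was not tested. The other ABC genes, Abce1, Abcf1, Abcf2, Abcf3, Tap1 and Tap2, had log2 fold changes from -0.97 to 0.33 and 0 calls by edgeR. Of these 6, 2 had an unadjusted p below 0.05 and 1, Abcf3, was called by DESeq2, against 6261 and 3916 of all 12603 tested genes.

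The woodrats spanned wider ranges than the lab rats in many of these genes. The highest woodrat was 3-fold or more above the lowest in 12 of the 42 tested transporters (28.6%, against 17.9% of all tested genes), and the same held for the lab rats in 5 (11.9%, against 12.7%). Woodrat 1 was the lowest of its species in 24 of the 42 (57.1%), against 39.1% of all tested genes. Lab rat 3 was the lowest of its species in 29 (69.0%), against 46.1%. For Abca12, Abca1, Abcg1, Abcg4, Slco2a1 and Slco2b1, woodrat 1 was lowest and woodrat 3 highest. Without woodrat 1 the log2 fold change was -0.03 for Abca12, 0.71 for Abca1, -2.23 for Abcg4, -0.29 for Slco2a1 and -0.68 for Slco2b1, of which Abcg4 passed the threshold (FDR = 0.00792). The summed squamous epithelium and macrophage markers had the same order among the woodrats, and the smooth muscle markers the opposite order. The lab rats differed in this. Abca12, Abca1, Abcg1, Abcg4, Slco2a1 and Slco2b1 were each lowest in lab rat 3. Squamous epithelium sums were 16300, 18300 and 23000 CPM in lab rats 1, 2 and 3, of which Krt13 was 8390, 9190 and 13100 CPM. The listed squamous genes did not share 1 order, since 4 of the 10 (Trp63, Dsg3, Dsp and Ivl) were lowest in lab rat 3. Smooth muscle sums were 9900, 16700 and 17700 CPM in lab rats 1, 2 and 3, and macrophage sums 93.1, 61.8 and 47.1 CPM. The endothelium markers summed to 69.7, 120 and 103 CPM in woodrats 1, 2 and 3 and to between 168 and 180 CPM in lab rats, with 2 of 9 lower in woodrats and 0 higher. The part of cell makeup in these values was not tested. Of the remaining marker lists, fibroblast genes had 1 of 6 tested lower in woodrats and glandular stomach genes 1 of 2 tested higher, while mast cell, lymphocyte, adipocyte and enteric neuron and glia genes had 0 calls by edgeR. Of the 10 tested genes of those 4 lists, 5 had an unadjusted p below 0.05 and DESeq2 called 2, against 6261 and 3916 of all 12603 tested genes.

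**Figure D4:**
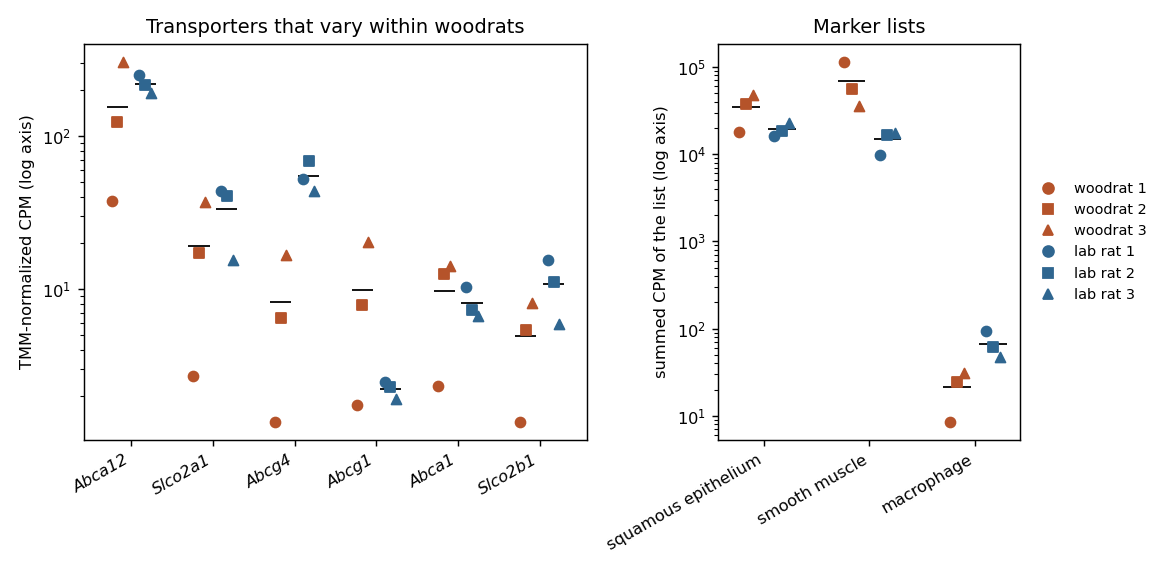
Left, TMM-normalized CPM (log axis) of 6 transporters in each animal, with woodrats in orange, lab rats in blue, a marker shape per animal and a line at the mean of 3. Right, the summed CPM (log axis) of the squamous epithelium, smooth muscle and macrophage marker lists. Woodrat 1 is the lowest woodrat in all 6 transporters, lowest for squamous epithelium (18100 CPM) and highest for smooth muscle (114000 CPM). Lab rat 3 is the lowest lab rat in all 6 transporters and the highest for the squamous epithelium sum (23000 CPM, of which Krt13 is 13100). Of the 10 squamous epithelium genes, 4 are lowest in lab rat 3, so the list does not give 1 order.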

How the data were processed

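Foregut mRNA of 3 woodrats and 3 lab rats was compared. The authors used Trimmomatic to trim the stranded read pairs and FLASH to join pairs that overlapped. They aligned what resulted to the coding transcripts of the mouse (GENCODE M7) by cross_match, excluded a list of genes with many multiple alignments (none of them a transporter of the rule), and deposited the raw counts of uniquely assigned reads per mouse gene. Tool versions and gene coordinates were not given in the sources used here, and the labels also name the build mm9. No transporter sequence or gene length was used here, so levels of different genes are not ranked.

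Counts were joined by gene identifier (pandas 2.3.3, Python 3.11.15). A gene was tested if 3 or more animals had 1 CPM or more. The study set its filter at 5 CPM, and a filter at that level here left Abcg2 and Slc22a5 untested. TMM factors and the quasi-likelihood F-test (the method before version 4) were computed with edgeR 4.0.16 in R 4.3.3. The model held species alone, the prior count was 0.125, and p-values were adjusted by Benjamini-Hochberg over 12603 genes. FDR values in the text are from this fit unless another is named, and the threshold of 0.01 is that of the study's methods. Standard errors are the size of the log2 fold change divided by the square root of F, and 95% intervals use the fit's t distribution. CPM values are TMM-normalized. Ratios of genes with very few reads carry exact binomial (Clopper-Pearson) intervals. On counts simulated for this comparison over 12603 genes, the fit recovered 70.9% of 110 genes changed by a log2 of 2 and 100% of 90 changed by 4, with 2 false calls. Every simulated gene had the same dispersion and only 200 were changed, so these rates need not hold for the measured genes.

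Every member past the threshold is given with its values in each animal, every other tested member by its log2 fold change apart from 3 that are counted but not reported here, every member below the filter by its reads, and partner genes past the threshold by name. The partner genes Nfe2l2, Nr1h3, Ahr, Rxrb, Arnt, Kcnj11, Pex3 and Hsd17b4 are named outside that rule, chosen after their values were seen. Members and lists were chosen with earlier results of these data known. Nothing beyond the labels shows how the animals of a species are related.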

Additional observations from a re-analysis of the deposited data

How the results depend on the processing

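The 7 called transporters kept their direction in every alternative, with the sum of Abcg2 and Abcg3 at 0.00, and Abca5 and Abcb6 were called in each of the 17 fits. The count of calls depended on the fit. Total counts in place of TMM gave 4 calls, 3 higher and 1 lower in woodrats, and the replicate block gave 2, 1 in each direction. DESeq2 gave 12, 7 higher and 5 lower, and an FDR below 0.05 gave 19, 10 higher and 9 lower. Over all 12603 tested genes DESeq2 called 3916, and 5026 had an FDR below 0.05. A filter at 5 CPM, the level the study used, left 5 calls. Of these 3 were higher in woodrats, because Abcg2 and Slc22a5 fell below the filter. Summing Abcg2 with Abcg3 and Slc22a5 with Slc22a21, an alternative chosen after seeing the data, also left 3, the sums not being called. Without an animal the calls numbered 2 to 8, with 1 to 6 higher and 1 to 3 lower. There were 8 without woodrat 1 or woodrat 3, 4 without lab rat 3, and 2 without woodrat 2, lab rat 1 or lab rat 2. Those fits have fewer animals and the cause was not tested further.

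For the partner genes, total counts gave 3 calls (2 higher and 1 lower), DESeq2 10 (4 and 6) and an FDR below 0.05 gave 16 (7 and 9). The replicate block gave 0 higher and 0 lower partner genes. At an unadjusted p below 0.05 the edgeR fit without the block had 20 of 42, against 6261 of all 12603 tested genes. Leaving out an animal gave 1 to 4 partner calls, 0 to 3 higher and 1 lower. For the marker genes, total counts left 5 lower, the block 4 calls (1 higher and 3 lower), DESeq2 26 (12 and 14) and an FDR below 0.05 gave 28 (12 and 16). Leaving out an animal gave 3 to 19 marker calls, 0 to 11 higher and 3 to 8 lower. The replicate numbers of the labels did not pair the animals. The correlation of deviations from the species mean averaged -0.219 over 3 same-numbered pairs and 0.107 over 6 others, and no animal correlated best with its own number.

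Of 700 pairs of a tested transporter and an alternative, 636 kept direction and side of the threshold, 33 lost a call, 14 gained it and 17 changed sign. The sign changed in 6 uncalled genes with values near 0. Abcb1b became 0.24 when summed with Abcb1a, Abcb4 -0.0013 with total counts and -0.02 with the replicate block, and Slc22a18 0.0035 with the filter at 5 CPM and 0.02 with total counts. Without 1 animal the ranges were -0.10 to 0.71 for Abca1, -0.64 to 0.30 for Abcb1b, -0.33 to 0.18 for Abcb4, -0.47 to 0.19 for Slc22a17, -0.43 to 0.30 for Slc22a18 and -0.45 to 0.43 for Slc22a23. Low depth limits the genes near 3 reads per library, where Abcg2 and Slc22a5 lay in lab rats.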
